A study of Solanum lycopersicum with 8 samples.

Results

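Tomato fruit peel that carried the Aft allele was compared with peel that did not, averaged over plants with and without the atv mutation. All 8 of the 8 arrays entered: 4 carrier arrays, from the Aft mutant and the Aft/Aft atv/atv double mutant, and 4 arrays without Aft, from the wild type (cv. Ailsa Craig) and the atv mutant. The design text gives the single mutants as Aft/Aft and atv/atv. Each of the 4 genotypes had 2 biological replicates, each on its own Affymetrix Tomato Genome Array. By the labels the Aft mutant had spots of anthocyanin, the double mutant was strongly pigmented, and the wild type and the atv mutant showed no significant pigment. All fruit was mature green, untreated, and came from winter plants in a heated greenhouse kept at 12 °C or more. Fruit of later stages was not analysed here. The titles name no cultivar for the mutant lines, so line background goes with genotype and cannot be told apart from the alleles. Nothing in the labels says that replicates were separate plants beyond the word biological, so p-values measure the spread between these samples.

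Anthocyanins are the purple and blue flavonoids of plants. Chalcone synthase makes the first flavonoid from phenylpropanoid precursors, and dihydroflavonol reductase (DFR) opens the branch that leads to anthocyanins. In fruit peel the late genes of this branch are switched on by complexes of MYB, bHLH and WD40 proteins. Aft was brought into tomato from a wild relative and is known for a MYB activator, while atv is known for the loss of a small MYB repressor. Peel at the mature green stage is photosynthetic, has stopped enlarging and has not begun to ripen, a process that in tomato depends on ethylene.

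The 2 arrays of the atv mutant stood apart from the other 6, and they enter the average over both atv states. How far they set that average was not tested. Across probe sets, r between replicates was 0.985 to 0.995, and the atv mutant arrays correlated with the other 6 arrays at 0.9 to 0.921, against 0.953 to 0.981 among those 6 across genotypes. Deposited array medians ran from 514.5 to 755.4 in carriers and from 640.3 to 746.7 without Aft. Control transcripts were brighter at their 3' end than at their 5' end by a log2 value of 0.93 to 1.48 in carriers and 1.18 to 1.33 without Aft. The 4 cuticle and epidermis genes tested summed to intensities of 28400 to 38500 without Aft and 30700 to 36400 in carriers, so peel markers were strong in every array. For each gene below, the effect of Aft is therefore given separately without atv (Aft mutant against wild type, which holds no atv mutant array) and in atv/atv fruit (double mutant against atv mutant). The log2 values of those effects are differences that share no array, although all arrays were normalized together. Their tests are not independent of each other. The fit took the spread between replicates from all arrays, those of the atv mutant included. With only the 4 arrays of the comparison in the fit, the 636 probe sets called without atv became 381.

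Of 9496 probe sets tested, 1536 (16.2%) had all 4 carrier arrays on one side of the 4 arrays without Aft. Carriers were higher for 924 (9.73%) and lower for 612 (6.44%). This separation is how the probe sets were chosen and carries no test. The fitted main effect of Aft, tested with limma, passed an adjusted p of 0.05 for 3434 probe sets (36.2%), of which 1847 (19.5%) were higher in carriers and 1587 (16.7%) lower, and 1364 of the 1536 separated probe sets were among them. Without atv the effect of Aft passed for 636 probe sets (6.7%), in atv/atv fruit for 4332 (45.6%), and the difference between those effects for 2483 (26.1%). Only 372 probe sets (3.92%) passed in both atv states in the same direction, and 338 of them were separated, 165 higher and 173 lower in carriers. Another 939 separated probe sets passed in atv/atv fruit alone, 21 without atv alone and 238 in neither. When both atv mutant arrays were left out and the carriers were set against the wild type, 1482 probe sets passed, 723 higher and 759 lower.

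The separated probe sets spread unequally over both states. The median effect of Aft on those higher in carriers was 0.31 on the log2 scale without atv and 0.77 in atv/atv fruit. On those lower in carriers it was -0.42 without atv and -1.06 in atv/atv fruit. The effect was larger in atv/atv fruit for 1271 of 1536 (82.7%), against 76.4% of all probe sets tested, and the difference between states passed for 544 (35.4%). A main effect of at least 1 on the log2 scale was reached by 470 of the 1536, beside 809 of all 9496 tested. Of those 470, 226 were higher and 244 lower in carriers. Among the separated probe sets 172 carried a gene symbol, for 163 genes. Beside the genes named by rule, a few further genes were chosen after their values were seen: LOC543899, PTI5, RIN, EIL4, XTH6, XTH7, TBG3, HT2, HT3, XTH3, CIF1, P69A, SBT1, LOX1.1, OPR1, Psy1, AAP1, MT2, MTA, fsm1, bZIP1, BCCP, NP24-I, HSP17.4, exp11, TIM10, FRO1 and TPI.

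**Figure D1:**
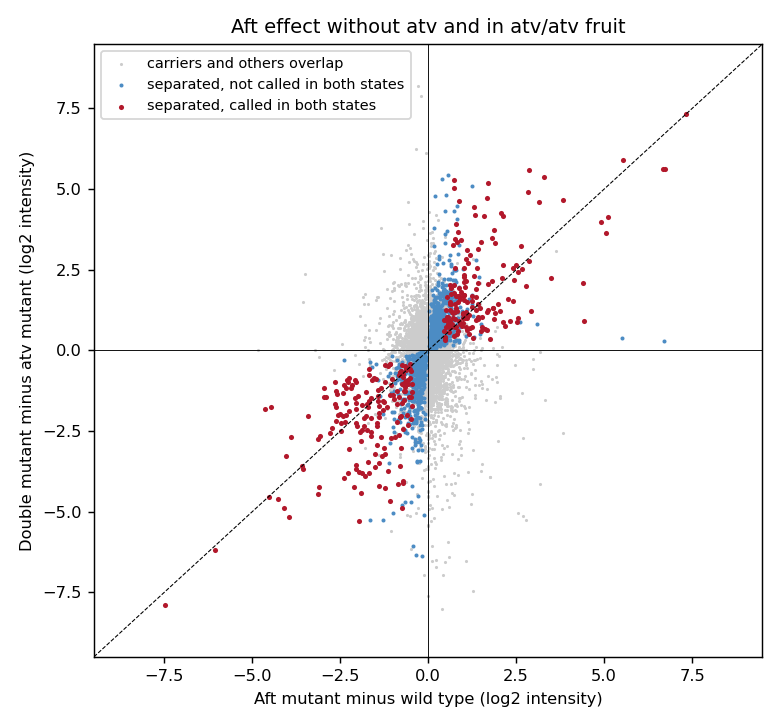
Effect of Aft on each tested probe set without atv (x axis, Aft mutant minus wild type, log2 intensity) and in atv/atv fruit (y axis, double mutant minus atv mutant, log2 intensity); the dashed line marks equal effects. Red points are the 338 separated probe sets called in both states, blue points the other separated ones, which stretch along the y axis more than the x axis, and grey points the probe sets whose arrays overlap.

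DFR, the only tested gene that its symbol places in the anthocyanin branch, had the largest rise among genes with an informative symbol. DFR lay at the floor, an intensity of 16 or log2 of 4, on both wild type arrays. In the atv mutant it read 7.49 and 7.92, in the Aft mutant 10.57 and 10.77, while the double mutant reached 13.30 and 13.38. The 4 carriers lay above all arrays without Aft, and the genotypes followed each other with no overlap. The main effect was 6.15 (SE 0.12, limma adjusted p = 1.97e-06), or at least 71.2-fold as the mean over both states, since the wild type was at the floor. In atv/atv fruit, where every array was measured above the floor, Aft raised DFR by 5.64 (adjusted p = 6.24e-06).

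Another transcript moved through the genotypes in the same order. LOC543899, for which the annotation gives no role, read 4.13 and 4.06 in the wild type, 6.67 and 6.48 in the atv mutant, 9.62 and 9.67 in the Aft mutant, beside 12.45 and 12.50 in the double mutant. Its 4 carrier arrays lay above the rest, and its effects of 5.55 without atv and 5.90 in atv/atv fruit did not pass the test of a difference (adjusted p = 0.141). The main effect was 5.72 (SE 0.08, limma adjusted p = 7.25e-07).

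The chalcone synthases, which act upstream of DFR, did not follow it. CHS1 read 7.59 and 7.78 in the wild type, 10.62 and 10.69 in the Aft mutant, 13.35 and 13.41 in the atv mutant, and 13.06 and 13.14 in the double mutant. Carriers and fruit without Aft overlapped, because the atv mutant was the highest genotype. Aft raised CHS1 by 2.97 without atv (limma adjusted p = 5.54e-05), and its effect of -0.28 in atv/atv fruit did not pass (adjusted p = 0.0748). The test of the difference gave an adjusted p of 7.78e-05, so the main effect of 1.35 averages unlike values.

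CHS2 was bright on every array and lower in carriers. It read 13.94 and 13.82 in the wild type, 14.09 and 14.04 in the atv mutant, 13.28 and 13.45 in the Aft mutant, then 13.63 and 13.62 in the double mutant. The groups did not overlap, and CHS2 fell by 0.48 (SE 0.08, limma adjusted p = 0.00417), with nearly the same effect in each state (-0.52 and -0.44). This call was lost when each array was scaled to the same median.

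Among 6 tested genes of the MYB, bHLH and WD40 families, 1 rose with Aft and the other 5 did not pass the test; 19.5% of all probe sets were called higher, so this share is near the background. The riser, MYB (synonym THM18), encodes a MYB transcription factor. It read 5.34 and 5.64 in the wild type and 4.35 and the floor in the atv mutant, against 6.50 and 6.51 in the Aft mutant, with 6.84 and 6.60 in the double mutant. The carriers lay above all other arrays, with the wild type next. The main effect was 1.78 (SE 0.12, limma adjusted p = 0.000142), and it was smaller without atv (1.02) than in atv/atv fruit (2.55, adjusted p of the difference 0.00595).

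The phenylpropanoid list had 5 members tested, all of side branches that compete with flavonoids for precursors. No enzyme that supplies precursors to flavonoids was among them. None was called higher in carriers and 3 were called lower (16.7% of all probe sets were), 2 of them separated (6.44% of all were separated and lower). CCR1, a cinnamoyl-CoA reductase on the way to lignin, fell by 0.59 (limma adjusted p = 0.00643), and passed in both states. THT7-1, a tyramine hydroxycinnamoyltransferase, fell by 1.30 (adjusted p = 0.00115). Its effect of -0.78 without atv did not pass (adjusted p = 0.0925).

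**Figure D2:**
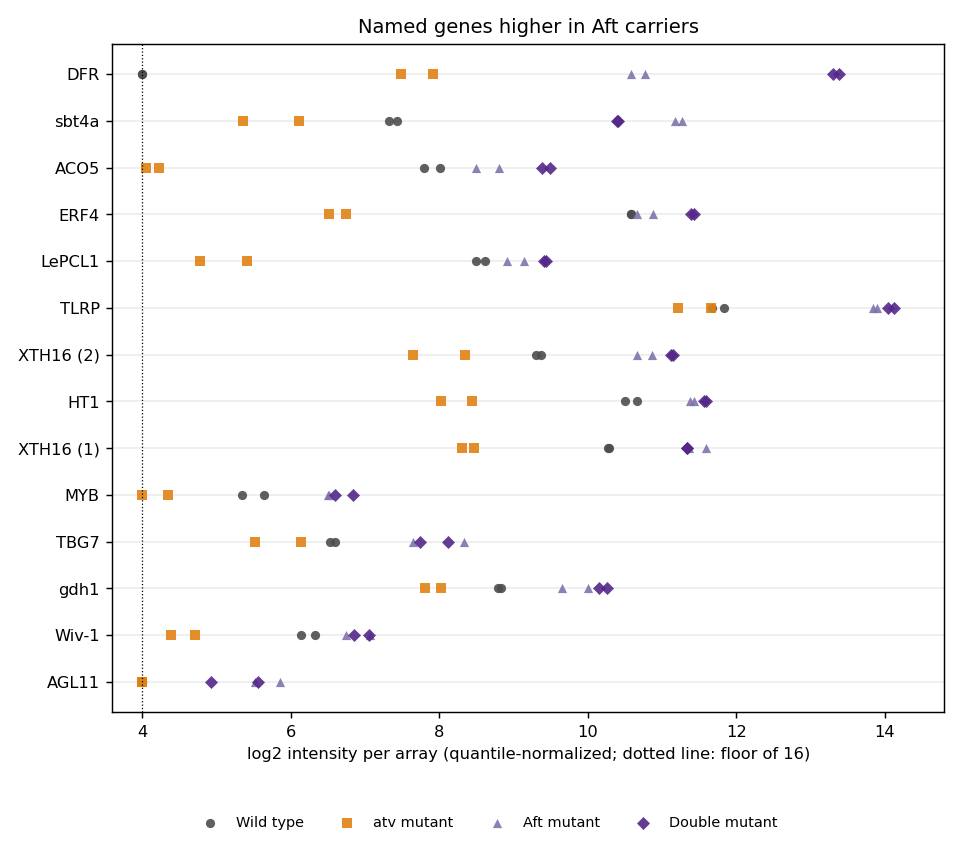
Log2 intensity of each array (x axis, quantile-normalized) for named genes with higher levels in Aft carriers (y axis, numbers in brackets mark probe sets of 1 gene); 2 arrays per genotype, and the dotted line is the floor of 16. DFR and sbt4a show the widest distance between carriers and the rest, while ERF4 and LePCL1 carriers sit just above the wild type and far above the atv mutant.

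After DFR, the largest rise among genes with an informative symbol was that of sbt4a, a subtilisin-like protease. It read 7.44 and 7.33 in the wild type, 5.36 and 6.11 in the atv mutant, 11.26 and 11.17 in the Aft mutant, beside 10.41 and 10.39 in the double mutant. The carriers were clear of the other arrays by several log2 units, and the Aft mutant was above the double mutant. The main effect was 4.25 (SE 0.16, limma adjusted p = 2e-05), a 19.1-fold mean difference, with 3.84 without atv and 4.67 in atv/atv fruit.

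Of 45 defence and wound probe sets tested, 14 were called higher and 6 lower in carriers, beside 19.5% and 16.7% of all probe sets. Separated were 3 higher and 4 lower, beside 9.73% and 6.44% of all. The median main effect was 0.16, beside 0.05 over all probe sets. Other proteases of the subtilisin family went both ways. P69A, known from pathogen-infected leaves, rose by 1.25 without atv and by 1.35 in atv/atv fruit. SBT1 fell by 1.84 without atv and fell by 2.09 in atv/atv fruit (limma adjusted p of the main effect 0.000848). CEVI57, named for its induction by a citrus viroid, had the largest fall among the named genes.

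CEVI57 read 9.95 and 9.74 in the wild type and 10.43 and 10.58 in the atv mutant. Carriers were far dimmer, at 5.88 and 5.92 (Aft mutant) and 5.07 and 5.61 (double mutant). The groups lay far apart in each atv state, and the main effect was -4.56 (SE 0.14, limma adjusted p = 8.41e-06), a 23.6-fold lower mean. WRKYIId-2, a WRKY transcription factor, read 8.99 and 8.92 in the wild type and 8.27 and 8.14 in the atv mutant, against 6.31 and 6.34 in the Aft mutant, then 6.08 and 5.98 in the double mutant. It fell by 2.40 (SE 0.07, adjusted p = 8.41e-06), and its groups did not overlap.

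Lipoxygenases oxidise fatty acids and feed jasmonate and fruit volatiles. Of these, LOXB and LOX1.1 were separated and lower in carriers (6.44% of all probe sets were). The lipoxygenases loxC, TomloxE and loxD were also tested, and their values are not given here. LOXB read 11.00 and 11.09 in the wild type, 9.40 and 9.58 in the atv mutant, 8.69 and 8.44 in the Aft mutant, with 7.01 and 6.95 in the double mutant. The genotypes formed a descending series with no overlap, the reverse of DFR. The main effect was -2.49 (SE 0.09, limma adjusted p = 1.68e-05), and it was nearly the same without atv (-2.48) and in atv/atv fruit (-2.51). LOX1.1 descended through the same order and fell by 2.07. OPR1, an oxophytodienoate reductase, fell by 1.90, with -1.46 without atv and -2.35 in atv/atv fruit.

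**Figure D3:**
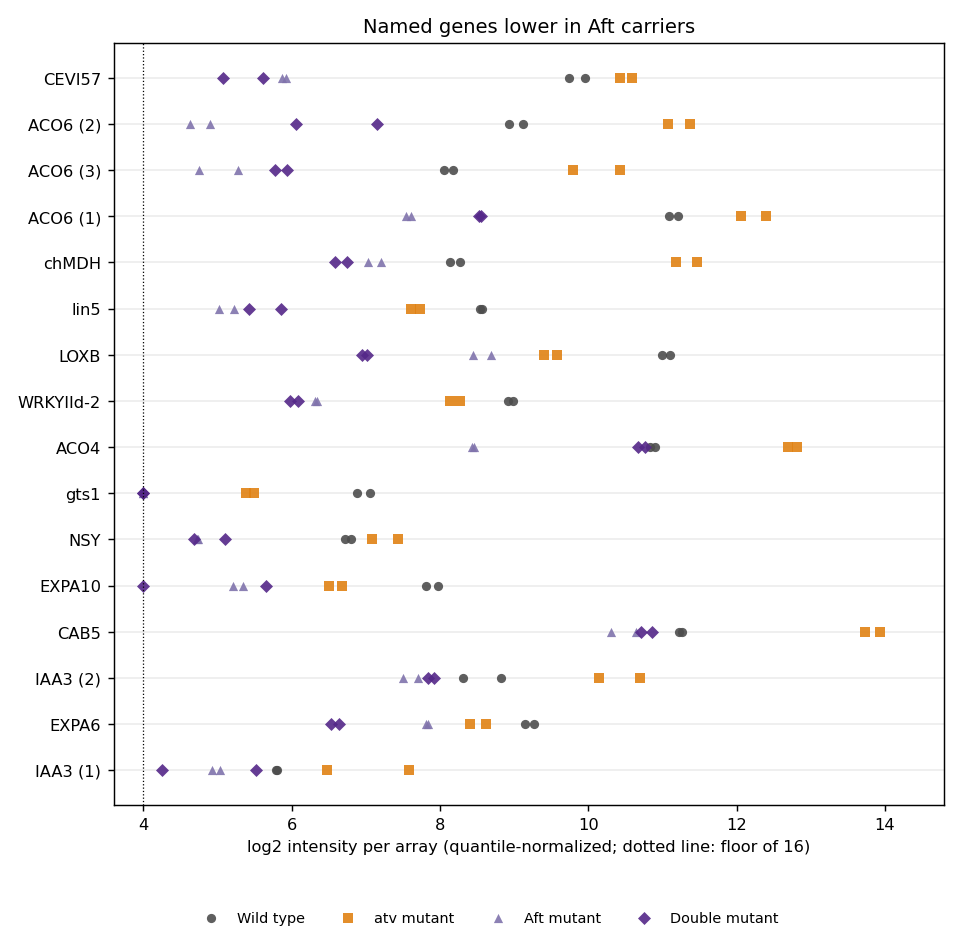
Log2 intensity of each array (x axis, quantile-normalized) for named genes with lower levels in Aft carriers (y axis, numbers in brackets mark probe sets of 1 gene); 2 arrays per genotype, and the dotted line is the floor of 16. The 3 ACO6 probe sets, CEVI57 and lin5 show wide distances in both atv states, and all 4 gts1 carrier arrays lie at the floor.

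Of 54 ripening and ethylene probe sets tested, 20 were called higher and 12 lower in carriers, beside 19.5% and 16.7% of all probe sets. Separated were 10 higher and 8 lower, beside 9.73% and 6.44% of all, and the median main effect was 0.21 (0.05 over all). The oxidases that make ethylene from ACC moved in opposite directions. All 3 ACO6 probe sets fell, by 4.44, 3.67 and 3.63. The brightest of them read 11.20 and 11.09 in the wild type and 12.39 and 12.06 in the atv mutant, against 7.55 and 7.61 in the Aft mutant, beside 8.55 and 8.52 in the double mutant. The carriers were at least 2 log2 units below every array without Aft, in both states alike (-3.57 and -3.69, limma adjusted p of the difference 0.688).

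ACO4 fell in both states as well, but its level also depended on atv. It read 10.89 and 10.84 in the wild type against 8.45 and 8.43 in the Aft mutant. With atv it read 12.70 and 12.81 in the single mutant against 10.77 and 10.67 in the double mutant. The double mutant reached almost the wild type level, so the separation was narrow although the effect was -2.42 without atv and -2.04 in atv/atv fruit (limma adjusted p of the main effect 1.02e-05).

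ACO5 rose instead. It read 8.01 and 7.80 in the wild type, 8.81 and 8.49 in the Aft mutant, then 9.38 and 9.49 in the double mutant, but 4.23 and 4.05 in the atv mutant, close to the floor. The main effect of 3.02 (SE 0.11, limma adjusted p = 1.55e-05) was made up of 0.74 without atv (adjusted p = 0.0387) and 5.29 in atv/atv fruit. ERF4, an ethylene response factor, showed the same arrangement with 10.58 on both wild type arrays, 6.74 and 6.51 in the atv mutant, 10.87 and 10.66 in the Aft mutant, with 11.39 and 11.43 in the double mutant. Its effect passed in atv/atv fruit (4.78), and its value without atv was 0.19 (adjusted p = 0.536). LePCL1 was alike, with 4.33 in atv/atv fruit and 0.47 without atv (adjusted p = 0.328).

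Most separated members of the ethylene list that were higher in carriers were of this kind. Only ACO5 and PTI5, an ERF-type factor that binds the Pto kinase, passed in both atv states among those 10. This is near the share over all 924 separated probe sets higher in carriers. Of those, 165 (17.9%) passed in both states and 597 in atv/atv fruit alone. PTI5 rose by 1.62 without atv and by 0.65 in atv/atv fruit. EIL4, of the EIN3-like family that relays the ethylene signal, rose by 1.43 in atv/atv fruit and had a value of 0.08 without atv (limma adjusted p = 0.823). RIN, the MADS-box regulator of ripening, was not separated. RIN fell by 3.49 without atv and rose by 2.36 in atv/atv fruit, where the atv mutant was at the floor, and its main effect of -0.56 did not pass (adjusted p = 0.0833).

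Of 42 cell wall probe sets 12 were separated (16.2% of all were), 9 higher and 3 lower in carriers, and the median main effect was 0.01. In both atv states 7 were called higher and 3 lower (3.92% of all were called in both). Xyloglucan endotransglucosylases cut and rejoin the tethers between cellulose fibres. They gave 4 of the separated probe sets, all with higher carriers (9.73% of all probe sets were separated and higher). XTH1, XTH5, LeXTH9 and tXET-B2 of this family were also tested, and their values are not given here. XTH16 read 10.27 and 10.29 in the wild type and 8.31 and 8.47 in the atv mutant, against 11.59 and 11.37 in the Aft mutant, beside 11.33 and 11.34 in the double mutant on its brighter separated probe set. Carriers formed a single cluster while the genotypes without Aft did not, and XTH16 rose by 1.20 without atv and by 2.94 in atv/atv fruit. A second probe set of XTH16 gave a main effect of 2.28, and the third was not separated. XTH6 rose by 1.24 and XTH7 by 0.80 as main effects, both called in both states. XTH3, named here as an exception, was called lower (-1.87) but overlapped.

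A structural wall protein and 2 of 7 beta-galactosidases were separated on the higher side (9.73% of all probe sets were). TBG7, a beta-galactosidase that trims galactose from the wall, rose by 1.76 (SE 0.21, limma adjusted p = 0.00146), with 1.42 without atv and 2.10 in atv/atv fruit. TBG3, of the same family, rose by 0.88. TLRP, a cell wall protein rich in tyrosine, read 11.83 and 11.67 in the wild type and 11.65 and 11.21 in the atv mutant, against 13.83 and 13.89 in the Aft mutant, then 14.12 and 14.04 in the double mutant. Its genotypes without Aft were alike and its carriers were 2.11 and 2.65 higher in the respective states (adjusted p of the main effect 3.99e-05).

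Expansins, which loosen the wall, were separated in both directions. EXPA10 read 7.80 and 7.97 in the wild type, 6.50 and 6.68 in the atv mutant, 5.34 and 5.21 in the Aft mutant, with 5.65 and the floor in the double mutant. The double mutant arrays disagreed with each other, and the error was wide (-2.19, SE 0.34, limma adjusted p = 0.00405). EXPA6 fell by 1.66 (SE 0.08, adjusted p = 4.22e-05) and its dimmer second probe set was also lower and separated. exp11 was higher in carriers by 0.88 (adjusted p = 0.0172), with arrays that almost touched.

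Of 24 sugar and starch probe sets 8 were separated (16.2% of all were), 4 in each direction. Called were 5 higher and 8 lower (19.5% and 16.7% of all probe sets were), with a median main effect of 0.02. lin5, a cell wall invertase that splits sucrose outside the cell, read 8.54 and 8.56 in the wild type and 7.61 and 7.73 in the atv mutant. The carriers were dimmer, with lin5 at 5.02 and 5.22 (Aft mutant) and 5.86 and 5.43 (double mutant). The groups were clear of each other, and lin5 fell by 3.43 without atv and fell by 2.03 in atv/atv fruit (limma adjusted p of the main effect 2.55e-05).

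Wiv-1, another cell wall invertase, was higher in carriers. It read 6.14 and 6.32 in the wild type, 4.39 and 4.71 in the atv mutant, 7.07 and 6.75 in the Aft mutant, beside 6.85 and 7.05 in the double mutant. The main effect was 1.54 (limma adjusted p = 0.000275), and the value without atv, 0.68, did not pass (adjusted p = 0.0805). CIF1, an inhibitor of cell wall invertase, fell by 1.69 without atv and fell by 1.56 in atv/atv fruit.

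Of 3 hexose transporters, which take up the products of invertase, HT1 and HT2 were higher and separated, and HT3 did not pass the test. HT1 read 10.66 and 10.49 in the wild type, 8.43 and 8.03 in the atv mutant, 11.37 and 11.42 in the Aft mutant, then 11.59 and 11.57 in the double mutant. HT1 rose by 0.82 without atv (limma adjusted p = 0.029) and by 3.35 in atv/atv fruit. HT2 rose by 1.41 without atv and by 1.04 in atv/atv fruit, with no passing difference between states (adjusted p = 0.295).

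Further genes named by the size of their change, or chosen afterwards, belong to no list used here. gdh1, a glutamate dehydrogenase, rose by 1.65 (SE 0.11, limma adjusted p = 0.000114). AAP1, an amino acid transporter, read 7.92 and 8.01 in the wild type, 8.29 and 8.52 in the atv mutant, 6.20 and 6.08 in the Aft mutant, with 5.97 and 6.17 in the double mutant. Its carriers were tightly grouped below the rest, and AAP1 fell by 2.08. chMDH, a malate dehydrogenase, read 8.27 and 8.13 in the wild type and 11.18 and 11.46 in the atv mutant, against 7.21 and 7.03 in the Aft mutant, beside 6.75 and 6.58 in the double mutant. It fell by 1.09 without atv and fell by 4.66 in atv/atv fruit.

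Carotenoid genes were mostly lower in carriers, and mainly against the atv mutant. Of 16 probe sets tested 13 were called lower (16.7% of all probe sets were) and 1 higher. Separated and lower were 6 (6.44% of all were), and 3 were called lower in both states (3.92% of all were called in both). The median effect over the list was -0.04 without atv and -1.08 in atv/atv fruit, beside 0.0 and 0.1 over all probe sets. NSY, a neoxanthin synthase also listed under Cyc-B, a name of the fruit lycopene cyclase, read 6.80 and 6.73 in the wild type, 7.08 and 7.43 in the atv mutant, 4.74 and 4.72 in the Aft mutant, then 4.69 and 5.11 in the double mutant. The carriers were low in both states alike, and NSY fell by 2.20 (SE 0.13, limma adjusted p = 7.5e-05). CrtR-b1, a carotene hydroxylase, fell by 2.14 in atv/atv fruit, and its value of -0.34 without atv did not pass (adjusted p = 0.143). CCD1B, a dioxygenase that cleaves carotenoids, fell by 1.60 there, with -0.21 without atv (adjusted p = 0.381). Psy1, the fruit phytoene synthase, was separated on 1 of its 3 probe sets, where it fell by 0.67 without atv and fell by 1.13 in atv/atv fruit.

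Photosynthesis transcripts followed the same arrangement. Of 10 tested, 9 were called lower and none higher in carriers (16.7% of all probe sets were called lower), and 5 were separated and lower (6.44% of all). The median main effect was -0.39, beside 0.05 over all. CAB5, a chlorophyll a/b-binding protein, read 11.26 and 11.22 in the wild type, 13.93 and 13.72 in the atv mutant, 10.65 and 10.30 in the Aft mutant, with 10.86 and 10.71 in the double mutant. The atv mutant alone was far above the others, and CAB5 fell by 0.76 without atv and fell by 3.04 in atv/atv fruit. It was the only member called in both states. CAB4, of the same protein family, and PsbQ, a subunit of the oxygen-evolving complex, fell by 0.63 and fell by 0.39 as main effects, and neither passed without atv.

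**Figure D4:**
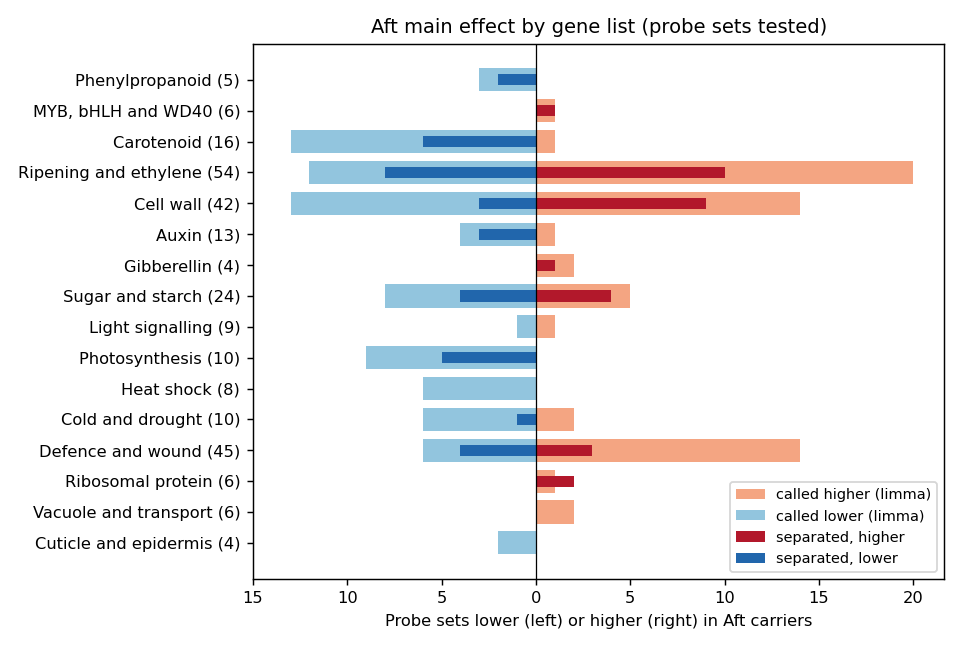
Number of probe sets per gene list (y axis, with the number tested in brackets) that were higher (right) or lower (left) in Aft carriers (x axis, count); wide pale bars are called by limma and narrow dark bars are separated. Ripening and cell wall lists reach both sides, carotenoid and photosynthesis lists lie on the left, and the heat shock list has 6 called and 0 separated.

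Of 13 auxin probe sets 4 were called lower and 1 higher (16.7% and 19.5% over all probe sets), and the 3 separated ones were lower (6.44% over all). Of 4 gibberellin probe sets 2 were called higher and 1 was separated (19.5% and 16.2% over all probe sets). IAA3, a repressor of auxin response, was separated on both of its probe sets. The brighter read 8.82 and 8.32 in the wild type, 10.70 and 10.15 in the atv mutant, 7.50 and 7.71 in the Aft mutant, beside 7.84 and 7.92 in the double mutant. IAA3 fell by 2.54 in atv/atv fruit on it, and the value without atv, -0.97, did not pass (limma adjusted p = 0.0726). IAA17, of the same family, fell by 0.34 (adjusted p = 0.0247) and lost its call under several other settings. GAI, the DELLA repressor of gibberellin response, rose by 1.34 in atv/atv fruit, with a value of 0.17 without atv (adjusted p = 0.497).

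Stress and housekeeping lists held 3 separated members. Of 10 cold and drought probe sets, 2 were called higher and 6 lower (19.5% and 16.7% over all probe sets), and only DREB2, a dehydration-responsive factor, was separated (16.2% over all), with a main effect of -0.74 (limma adjusted p = 0.00377). The metallothioneins MTA and MT2 fell by 1.33 and fell by 1.94, each called in both states. Of 6 ribosomal protein probe sets, RPL37 and RPL8 were separated (16.2% of all probe sets were). RPL37 rose by 0.28 (adjusted p = 0.0239), a call lost on the deposited scale, and the value of RPL8, 0.19, did not pass (adjusted p = 0.0843). No member of the light signalling list (9 tested) or the vacuole and transport list (6 tested) was separated, beside 16.2% of all probe sets.

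AGL11, a MADS-box gene known from ovules and seeds, was measured in carriers only. All 4 arrays without Aft were at the floor, the Aft mutant read 5.52 and 5.85, and the double mutant 5.55 and 4.92. That makes it at least 2.75-fold higher in carriers; it passed the filter on low values only through them, so its test is not given. AGL11 is also the only seed marker tested, and whether seed tissue entered a sample was not tested. Of markers of other tissues, the vascular gene TPRP-F1 had intensities of 70.7 to 275.0 without Aft and 68.3 to 99.7 in carriers. TPRP-F1 was called lower (-0.75, limma adjusted p = 0.00408), with -1.81 without atv and 0.32 in atv/atv fruit (adjusted p of the difference 0.00151). The pollen gene LAT61 did not pass, and no trichome marker was tested. Of the 4 cuticle and epidermis markers, LE16 and TSW12 were called lower (-0.27 and -0.75) with overlapping arrays. The part of these markers in the other results was not tested. The converse held for gts1, which read 7.06 and 6.88 in the wild type, 5.38 and 5.49 in the atv mutant, and lay at the floor on every carrier array, at least 4.6-fold lower, likewise with no test given. The other probe set of gts1 was not separated. Over all separated probe sets, 11 had every array without Aft at the floor and 8 had every carrier array there.

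Probe sets separated and called in both atv states, with no passing difference between them, numbered 184 of the 338, 87 higher and 97 lower in carriers. Beside LOXB, ACO4, ACO6, NSY, TLRP and TBG7, these include that of fsm1, a fruit gene with a MYB-like domain. It read 6.57 and 6.85 in the wild type, 6.67 and 6.75 in the atv mutant, 8.69 and 8.40 in the Aft mutant, then 8.04 and 8.02 in the double mutant. All arrays without Aft were alike, and fsm1 rose by 1.58 (SE 0.10, limma adjusted p = 0.000122). BCCP, the biotin carrier of the acetyl-CoA carboxylase that makes malonyl-CoA, rose by 1.08, with 0.99 without atv and 1.16 in atv/atv fruit. bZIP1, a bZIP transcription factor, rose by 1.15.

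The largest main effects were in probe sets with no gene name here. The largest unnamed rise lay at the floor on all 4 arrays without Aft and read 11.35 and 11.28 in the Aft mutant, with 11.22 and 11.45 in the double mutant, at least 161-fold higher. The next read from the floor to 4.86 without Aft and from 9.71 to 11.33 in carriers. The largest unnamed fall read 11.55 to 12.45 without Aft and from the floor to 4.76 in carriers, at least 208-fold lower by the mean, since carrier arrays lay at the floor. Another probe set built on the same cluster of transcript sequences, by its name, was at least 70.3-fold lower. All of these 4 had arrays at the floor, so how their effects compare between atv states is not known and no test of it is given.

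The genotypes fell into several orders among the separated probe sets. These orders were not counted over all probe sets tested, so the shares below cannot be read as particular to the separated ones. The separation rule itself favours an atv mutant on the far side, since an atv mutant level that reaches the carriers fails it. Among the 924 higher in carriers, the double mutant arrays lay beyond the Aft mutant arrays for 384 (41.6%), as the labelled pigment does, the reverse held for 156 (16.9%), and they overlapped for 384. The atv mutant lay on the far side of the wild type from the carriers for 602 (65.2%) and between the wild type and the carriers for 66 (7.14%). The order wild type, atv mutant, Aft mutant, double mutant with no overlap was found for 31, of which 18 had a main effect over 1. With an informative symbol these were DFR and bZIP1. Among the 612 lower in carriers the atv mutant was again on the far side of the wild type for 402 (65.7%), and the full descending order was found for 23, LOXB, LOX1.1, WRKYIId-2 and EXPA6 among them.

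Many probe sets that limma called were not separated. These numbered 2070, and for 842 of them the effect of Aft had opposite signs in the 2 atv states. NP24-I, a thaumatin-like defence protein, read 13.25 and 13.24 in the wild type, 12.96 and 12.95 in the Aft mutant, beside 12.70 and 12.67 in the double mutant, against 4.46 and 4.52 in the atv mutant. Its main effect of 3.95 thus came with carriers below the wild type. The heat shock list gave 6 of 8 called lower (16.7% of all probe sets were). Its median was 0.11 without atv and -6.0 in atv/atv fruit, beside 0.0 and 0.1 over all probe sets. HSP17.4, a small heat shock protein, read 12.24 and 12.79 in the atv mutant and between the floor and 4.97 on the other 6 arrays. The part that these unusual atv mutant levels play in the separated probe sets was not tested.

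Probe sets of 1 gene could be compared for 75 genes. At least 1 was separated for 24 of these, all for 6 and some for 18. At the edge of the rule, exp11 was just inside, with a gap of 0.003 between groups, as was TIM10 with 0.008. FRO1 and TPI were just outside, their groups touching at the floor. The normalization between arrays also set membership: with the deposited intensities 960 probe sets were separated, 364 higher and 596 lower, and 776 of the 1536 were separated the same way. On that scale the called probe sets were 29.6% higher, against 53.8% after quantile normalization. The median main effect over all probe sets was 0.05 after quantile normalization and -0.09 as deposited. Of the 338 called in both states, 307 were also separated as deposited.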

How the data were processed

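The deposited table holds 1 intensity per probe set and array on a linear scale, made by the authors; per the submitters' processing notes GCRMA was used, with no version or role stated. Array medians differ, and the scaling behind them is not stated in the sources at hand. The 8 arrays were quantile-normalized, floored at an intensity of 16 and log2-transformed. Of 10209 probe sets, 171 controls were left out, and 9496 of the other 10038 were above the floor on at least 2 arrays. Of these, 848 had a gene symbol (753 genes); 885 of 909 symbols matched the gene table.

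Group means were fitted with limma 3.58.1 in R 4.3.3 (4 residual and 2.29 prior degrees of freedom, two-sided, Benjamini-Hochberg over 9496, threshold 0.05). Errors are limma's SE. Named by rule were the 12 largest rises and 12 largest falls among separated and called probe sets with an informative symbol, all flavonoid and anthocyanin genes, and up to 3 separated members of each other list. Gene lists were matched by symbol, and some were trimmed after the files were read, to drop wrong synonyms. Members and lists were chosen with earlier results of these data known. No genome, promoter or protein sequence was used here. On simulated data (9496 probe sets, 50 changed per size) the main effect recovered 14, 39, 44 and 47 at log2 sizes of 0.5, 1, 2 and 3, and 10 of 154 calls were false. The simulation held no atv effect and no difference between atv states, and spreads were shuffled over probe sets. Far fewer probe sets changed in it than were called here, so its rates need not hold for these data. Replicate numbers are shared by genotypes, but same-numbered arrays deviated together with correlations of -0.0742 to 0.347, so the number was not used to pair them. The number of arrays limits the precision.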

Additional observations from a re-analysis of the deposited data

Results flagged for a closer look

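By limma's interaction contrast (adjusted p 0.05), the effect of Aft differed between atv/atv fruit and fruit without atv for 544 separated probe sets. These were 35.4% of the separated ones, against 26.1% of all probe sets tested. It also differed for 22 of the 43 probe sets named by rule, which were chosen partly by the size of their change. The differences below are the effect in atv/atv fruit minus the effect without atv, on the log2 scale. Among genes lower in carriers, chMDH differed by -3.57, CAB5 by -2.28, CrtR-b1 by -1.80, IAA3 by -1.57, CCD1B by -1.39, CEVI57 by -1.22, THT7-1 by -1.03 and CAB4 by -0.73, so the fall was deeper in atv/atv fruit. lin5 differed by 1.40, so its fall was deeper without atv. gts1 is counted among the 22, with 1.54, but every carrier array was at the floor. Its value therefore only sets the wild type against the atv mutant. Both of its falls are lower bounds, and which was deeper is not known. Among genes higher in carriers, ERF4 differed by 4.59, ACO5 by 4.55, LePCL1 by 3.85, HT1 by 2.53, both separated XTH16 probe sets by 1.74 and 1.71, Wiv-1 by 1.72, MYB by 1.53, gdh1 by 1.27 and GAI by 1.17. In each of these 10 the atv mutant arrays were the lowest of the 8. DFR differed by -1.04, with both wild type arrays at the floor, so that its effect without atv is a lower bound and the size of this difference is not known. CHS1, which was not separated, differed by -3.25. What sets the atv mutant arrays apart was not tested.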

How the results depend on the processing

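The count of called main effects (3434) was 1883 with the intensities as deposited, 601 in an additive model of Aft and atv, 636 for the Aft mutant against the wild type alone and 1482 without both atv mutant arrays, an alternative chosen after seeing the data; it was 2261 to 3919 when each array was left out, lowest without wild type replicate 1 and highest without atv mutant replicate 2. The 1536 separated probe sets became 960 as deposited and 3090 without both atv mutant arrays, where 4 arrays face 2, and 1618 to 2094 with an array left out. The 338 called in both states became 197 as deposited, and 159 to 374 with an array left out (159 without wild type replicate 1, 173 without replicate 2). Calls without atv (636) became 348 as deposited, 381 from their own 4 arrays, and 257 to 699 with an array left out (257 and 272 without wild type replicate 1 or 2, 393 and 411 without Aft mutant replicate 1 or 2); calls in atv/atv fruit (4332) became 2492 as deposited, and 2846 (without double mutant replicate 2) to 4433; calls of the difference (2483) became 1086 as deposited, and 1466 to 2880 (1466 and 1494 without wild type replicate 1 or 2, 1596 without double mutant replicate 2). Of 856 comparisons of 43 named probe sets under 20 settings, 794 kept direction and call, 61 lost or gained the call, and 1, CHS1 in double against atv mutant alone (-0.28), reversed. ACO5, CAB5, chMDH and HT1 lost the call in the additive model only. The replicate number as a block gave 3413 calls, close to the count without it; same-numbered arrays share only a number. The additive model puts the difference between states into its error; the cause of the other shifts was not tested.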
